A study of Mus musculus with 6 samples.

Results

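The 9 genes described here, Kdr, Flt1, Flt4, Tek, Pdgfra, Pdgfrb, Kit, Ret and Braf, encode kinases that the oral drug regorafenib (RG) inhibits. The rule that takes them uses names and no measured value, although earlier results of these data were known when the 9 were chosen. All gene probes of the array whose gene name is one of these symbols were taken, which gave 22 of 56605 probes and 9 of 37325 gene symbols. RNA was measured in colon tissue with tumors from 6 male C57BL/6 mice, 6 to 8 weeks old at purchase. All 6 mice had received azoxymethane (AOM, 10 μg/g), a carcinogen, and 2% dextran sulfate sodium (DSS) for 5 days, which inflames the colon. The RG@M-γ-CD group (3 mice, labelled as given the RG nanomedicine) took by mouth 30 μg/g of a complex of RG with mannose-modified γ-cyclodextrin, equal to 10 μg/g RG, and the PBS group (3 mice) took buffer, for 21 days followed by 14 days of observation. Each mouse gave 1 one-color Agilent array, so the whole tissue piece, with its tumor, muscle, vessel and immune cells, was read together. In such bulk RNA fewer cells of a type and less RNA per cell cannot be told apart. No group took RG without the carrier or the carrier without RG on these arrays, so the drug and its carrier cannot be told apart either.

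Kinase inhibitors of this class block the activity of the proteins and do not act on the mRNA directly, and an array reads the mRNA. KDR, FLT1 and FLT4 are the receptors for the vascular endothelial growth factors (VEGF). KDR carries the main growth signal in blood vessel endothelium, FLT1 binds VEGF tightly and also exists as a soluble form that traps it, and FLT4 serves lymphatic endothelium. TEK (TIE2) is the endothelial receptor for the angiopoietins, which steady or loosen vessels. PDGFRA and PDGFRB receive platelet-derived growth factors on fibroblasts, and PDGFRB also on pericytes, the cells that wrap small vessels. KIT, the receptor for stem cell factor, is found in the gut on mast cells and on the interstitial cells of Cajal, the pacemakers of the muscle layer. RET, with its GFRA co-receptors, receives the GDNF family of ligands on enteric neurons. BRAF passes the signal of such receptors through MEK to ERK in most cell types.

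The array probes are 60 bases long and were designed against single transcripts, so several members are read by probes for different transcripts. The first 30 bases are printed below, 5′ to 3′, for the probe behind the Tek result. They are also printed for probes of Kdr, Flt1 and Kit designed against a RefSeq mRNA or against another transcript. Capitals mark AATAAA, the canonical polyadenylation signal, read in the printed orientation only. It occurs in these 30 bases of 1.29% of the 56605 gene probes, and among those printed in the probe for a soluble Kdr transcript. Positions are those of the array design, on mm9.
Tek mRNA, probe A_51_P130374, chr4:94540861-94540919, plus strand: ctctaatgtgactgtatatactgctcggag
Kdr mRNA, probe A_51_P316553, chr5:76329309-76329368, minus strand: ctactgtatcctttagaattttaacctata
Kdr soluble transcript, probe A_55_P2745062, chr5:76353385-76353444, minus strand: ttgtggaattggagggaAATAAAtcctcta
Flt1 mRNA, probe A_51_P398723, chr5:148373791-148373850, minus strand: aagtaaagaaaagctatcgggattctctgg
Flt1 second transcript, probe A_55_P2735980, chr5:148450688-148450747, minus strand: aggaggaatgattgtaccacacaaagtcat
Flt1 second transcript, probe A_55_P2800423, chr5:148448888-148448947, minus strand: tcctcagaacaaaacctgaactgaactgag
Kit mRNA, probe A_66_P128434, chr5:76052394-76052453, plus strand: gtcaggtacttaaggggccacaccattgag
Kit alternative transcript, probe A_55_P2935232, chr5:76048202-76048261, plus strand: cctcatgccactgcataaaatttagatctt
The probe for the soluble Kdr transcript lies 24.1 kb upstream of the probe for the full mRNA. Those of the second Flt1 transcript lie 75.1 and 76.9 kb upstream of the RefSeq probe. Whether these upstream probes also read the full mRNA was not tested, since no gene annotation was used. The soluble Kdr probe, however, stayed at raw intensities of 4.12 to 4.97, where the probe for the full Kdr mRNA read 438 to 975.

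Signals are log2 intensities after subtraction of the array's own 75th percentile, and a difference is always RG@M-γ-CD minus PBS on this log2 scale. A level of one probe cannot be set against that of another. The share of gene probes above background ranged from 49.6% to 55.1% over the arrays. Over all tested genes 4 of the 6 arrays were closest to an array of their own group by root mean square difference, the 3 PBS arrays and RG@M-γ-CD 2 among them. RG@M-γ-CD 1 was closest to PBS 3 (0.48) and farthest from RG@M-γ-CD 2 (1.0), and RG@M-γ-CD 3 was closest to PBS 2 (0.51). The study's own clustering of these arrays joins RG@M-γ-CD 1 with PBS 2 and PBS 3, and PBS 1 with RG@M-γ-CD 2 and RG@M-γ-CD 3. By the distances over all genes PBS 1 was instead closer to PBS 3 (0.55) and PBS 2 (0.59) than to RG@M-γ-CD 3 (0.63) and RG@M-γ-CD 2 (0.67). An exchange of the labels of RG@M-γ-CD 1 and PBS 1 would change every difference given here, and it was not tested. The labels were kept, and the differences of the members without both mice are given below.

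Of the 9 genes, 8 were well above background in all mice of at least 1 group and were tested. In 6 of the 8 the mean was higher in RG@M-γ-CD and in 2 it was lower, with a median difference of 0.12, against −0.012 over all 19090 genes tested, of which 47.2% were higher. By limma with Benjamini-Hochberg adjustment, 0 of the 8 passed an adjusted p of 0.05, as did 0 of all genes (0%), where the smallest adjusted p was 0.818. At an unadjusted p below 0.05 stood 1 of the 8 members, Tek, and 419 of all genes (2.19%). The methods' t-test also called 0 genes after adjustment. Tek was also the 1 member whose groups did not overlap, with RG@M-γ-CD higher. Over all genes the groups did not overlap in 454 (2.38%) with RG@M-γ-CD higher and in 418 (2.19%) with it lower. The p-values measure the spread between 3 and 3 mice, and an exact permutation test of a single gene in this design cannot go below a two-sided p of 0.1. Without RG@M-γ-CD 1 alone, 202 of the 19466 genes then tested passed the adjusted threshold, and 0 of the 8 members were among them. A count of 0 among 8 genes says little beside so small a share.

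**Figure D1:**
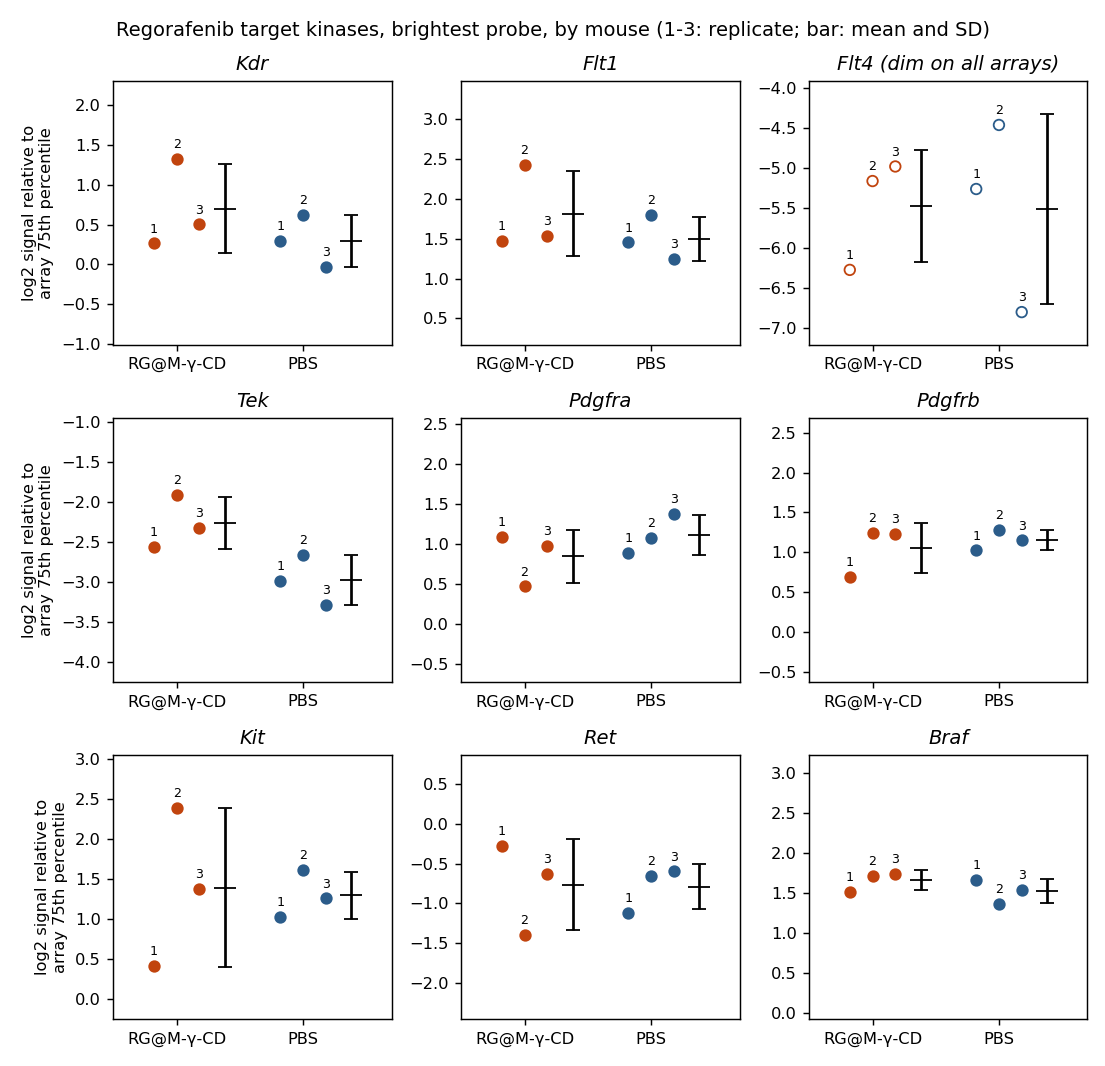
Signal of the brightest probe of each target kinase gene in each mouse (log2 relative to the 75th percentile of the array), RG@M-γ-CD in red and PBS in blue, replicate numbers beside the points, with the mean and SD of 3 mice. All panels span at least 3 log2 units, the 3 Tek values of RG@M-γ-CD lie above those of PBS, and the open Flt4 points were not well above background in any mouse.

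Tek gave the clearest separation of the members. Its single probe stood at −2.56, −1.91 and −2.32 in RG@M-γ-CD 1 to 3 and at −2.99, −2.66 and −3.29 in PBS 1 to 3. The lowest treated mouse, RG@M-γ-CD 1, was 0.10 above the highest control mouse, PBS 2. The means were −2.26 ± 0.33 and −2.98 ± 0.31 (SD, n = 3 each), a difference of 0.72 with a standard error of 0.25 and a 95% interval of 0.12 to 1.31, or 1.64-fold. The unadjusted limma p was 0.0248 and the adjusted p was 1, so Tek did not pass the test across all genes. Its difference was larger in size than that of 95.6% of the tested genes. Without RG@M-γ-CD 1 and PBS 1 the difference was 0.86 (adjusted p = 0.365 by limma). With the background corrected by normexp it fell to 0.33 (unadjusted p = 0.142 by limma), and the raw intensities behind it were low, between 45.8 and 104.

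Kdr, the principal VEGF receptor gene, did not separate the groups. The probe for the full mRNA read 0.26, 1.32 and 0.50 in RG@M-γ-CD 1 to 3 and 0.29, 0.62 and −0.030 in PBS 1 to 3. RG@M-γ-CD 2 was high, and the other 5 mice lay within 0.65 of each other. The difference was 0.40 with a standard error of 0.32 and a 95% interval of −0.37 to 1.18 (unadjusted p = 0.255 by limma). It was 0.089 without RG@M-γ-CD 2 and 0.62 without RG@M-γ-CD 1, and also 0.62 without both RG@M-γ-CD 1 and PBS 1. The probe for the soluble transcript, printed above, was not well above background in any mouse, nor was the probe for a further Kdr transcript.

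Flt1 was read by 4 probes. The probe for the RefSeq mRNA stood at 1.47, 2.42 and 1.54 in RG@M-γ-CD 1 to 3 and at 1.45, 1.79 and 1.25 in PBS 1 to 3, with RG@M-γ-CD 2 again highest and PBS 3 again lowest. The difference of 0.31 had a standard error of 0.30 and a 95% interval of −0.42 to 1.04 (unadjusted p = 0.341 by limma). It rested on RG@M-γ-CD 2, without which it was 0.0051, and it was 0.46 without RG@M-γ-CD 1 and PBS 1. Of the probes of the second transcript, 1 followed another order. A_55_P2735980 stood at −1.13, −1.17 and −1.23 in RG@M-γ-CD 1 to 3 and at −0.54, −1.66 and −1.58 in PBS 1 to 3, so that it was highest in PBS 1, while the treated mice were nearly level. A_55_P2800423 stood at 0.22, 0.43 and −0.089 in RG@M-γ-CD and at −0.13, 0.36 and −0.19 in PBS, so that RG@M-γ-CD 2 was highest and PBS 3 lowest as with the RefSeq probe. Their differences were 0.087 ± 0.32 and 0.17 ± 0.23 (difference ± standard error). After each probe was centred on its own mean, the probes of the 2 transcripts differed by a root mean square of 0.54 and 0.23 over the 6 arrays, and the 2 probes of the same second transcript differed from each other by 0.49. The probe for another Flt1 cDNA was not well above background in any mouse.

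**Figure D2:**
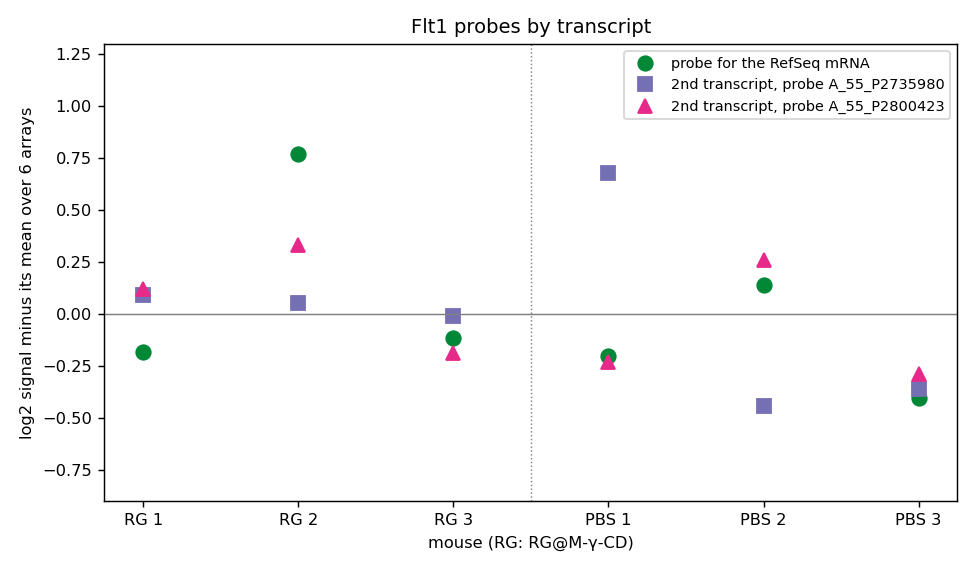
The 3 detected Flt1 probes in each mouse, each as log2 signal minus its own mean over 6 arrays. The probe for the RefSeq mRNA is highest in RG@M-γ-CD 2, and the 2 probes for the second transcript differ from each other, most in PBS 1 where A_55_P2735980 is highest.

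Flt4, the lymphatic VEGF receptor gene, had 1 probe, which was not well above background in any of the 6 mice. Its raw intensity lay between 4.0 and 14.6, and no difference was taken. Of 6 lymphatic endothelial markers, 6 were well above background and 3 were higher and 3 lower, with a median difference of −0.023, from 0.80 for Reln to −0.45 for Prox1. That median rose to 0.70 without RG@M-γ-CD 1 and to 1.04 without both RG@M-γ-CD 1 and PBS 1, and it was 0.31 without PBS 1. Lyve1, a hyaluronan receptor of lymphatic vessels, stood at −2.72, −0.64 and −0.93 in RG@M-γ-CD 1 to 3 and at −1.42, −1.52 and −2.03 in PBS 1 to 3. Prox1 instead was highest in RG@M-γ-CD 1 (4.48) and lowest in RG@M-γ-CD 2 (2.66), so the list did not move as 1 set. Thus Flt4 was not detectable with this probe in tissue where other lymphatic markers were.

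Kdr, Flt1 and Tek shared their highest and lowest mouse, though not the order between. All 3 were highest in RG@M-γ-CD 2 and lowest in PBS 3, and the gap between these mice was 1.35 for Kdr, 1.18 for Flt1 and 1.38 for Tek. Likeness of genes was measured by the root mean square gap of their profiles over the 6 arrays after each was centred on its own mean. The genes closest to Kdr among all tested were Ramp2 (gap 0.028), which encodes a partner of the adrenomedullin receptor, She (0.074) and Flt1 (0.077), where the median gap to all genes was 0.52. The closest to Flt1 were Grrp1 (0.061), Ramp2 (0.062) and D830044I16Rik (0.076). The closest to Tek were Sox7 (0.073), which encodes a transcription factor of endothelium, AK079699 (0.10) and 0610005C13Rik (0.13). The gaps are descriptions over 6 arrays, and all genes of an array share its tissue piece.

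Blood endothelial markers stood higher in RG@M-γ-CD as well. Of 13 listed genes 12 were tested (Erg was not), and all 12 had a higher mean, with a median difference of 0.34, though 0 passed the adjusted threshold and 0 had an unadjusted p below 0.05. The tally was 10 of 12 (median 0.17) when RG@M-γ-CD 2 was left out, 10 of 13 with 0.11 without PBS 3, and 12 of 12 with 0.53 without PBS 2 and with 0.33 without RG@M-γ-CD 1 and PBS 1. Cldn5, a tight junction gene of endothelium, differed by 0.78 and Pecam1, an adhesion gene, by 0.14. The summed linear signal of the 12 was 41.4 to 56.6 in RG@M-γ-CD and 27.5 to 48.0 in PBS, so the groups overlapped. Relative to the mean of these markers, a comparison added after the data were seen, Tek stood at −3.85, −3.30 and −3.46 in RG@M-γ-CD 1 to 3 and at −3.93, −3.94 and −3.76 in PBS 1 to 3. The groups then overlapped, and the difference fell from 0.72 to 0.34 (exact permutation p = 0.2, two-sided, n = 3 and 3). On the same footing the difference was 0.024 for Kdr and −0.066 for Flt1 (exact permutation p = 0.8 for each, n = 3 and 3). The part of the amount of endothelium in the differences of these receptors was not tested.

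**Figure D3:**
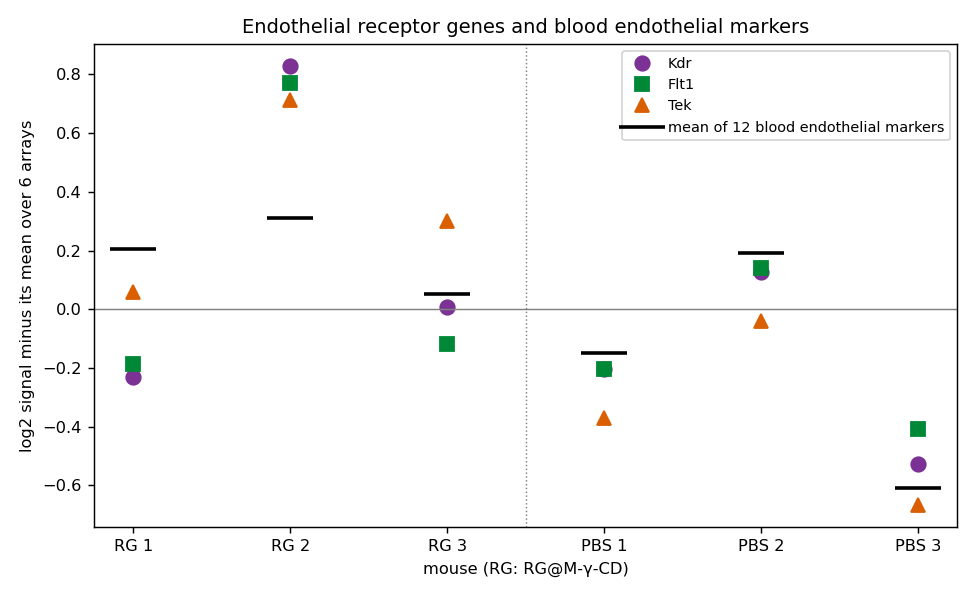
Kdr, Flt1, Tek and the mean of 12 blood endothelial markers in each mouse, each as log2 signal minus its own mean over 6 arrays. All 4 are highest in RG@M-γ-CD 2 and lowest in PBS 3, and Tek lies above its mean in the 3 RG@M-γ-CD mice and below it in the 3 PBS mice.

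The ligands, co-receptors and partners of these receptors gave no call. Of 5 VEGF family ligand genes 4 were higher and 1 lower, with a median difference of 0.14. With the mean of a gene's probes 2 were higher and 3 lower (−0.018), and with the slide row as a block likewise 2 and 3 (−0.19), while without RG@M-γ-CD 1 and PBS 1 the tally was again 4 and 1 (0.26). Vegfa, the main ligand of KDR, stood at 1.64, 1.72 and 1.13 in RG@M-γ-CD 1 to 3 and at 1.69, 0.97 and 1.35 in PBS 1 to 3, a difference of 0.15. The values at the ends were 0.74 for Vegfd, a ligand of FLT4, and −0.18 for Pgf, a ligand of FLT1. Angpt1, the activating ligand of TEK, differed by 0.16 and Angpt2, its context-dependent antagonist, by 0.047, and Angpt4 did not pass the filter. Of Angpt1 and Angpt2, 1 was higher and 1 lower without RG@M-γ-CD 1 and PBS 1, and with the background corrected by normexp. The 4 listed co-receptors and partners of the VEGF receptors and TEK were Nrp1, Nrp2, Tie1 and Ptprb, the last a phosphatase and not a co-receptor. All 4 were higher, with a median of 0.37, from 0.031 for Nrp2, a VEGF co-receptor, to 0.45 for Tie1, the partner of TEK. By limma, 0 of these genes passed the adjusted threshold and 0 had an unadjusted p below 0.05. Without RG@M-γ-CD 1 and PBS 1, 3 of the 4 co-receptors and partners were higher with a median of 0.44. That median was 0.18 without RG@M-γ-CD 2 and 0.20 without PBS 3.

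The PDGF receptor genes were the 2 members with a lower mean in RG@M-γ-CD. Pdgfra stood at 1.1, 0.47 and 0.98 in RG@M-γ-CD 1 to 3 and at 0.89, 1.08 and 1.38 in PBS 1 to 3. Its lowest value was that of RG@M-γ-CD 2, and the groups overlapped. The difference was −0.26 with a standard error of 0.23 and a 95% interval of −0.82 to 0.29 (unadjusted p = 0.294 by limma), and it was −0.50 without RG@M-γ-CD 1 and PBS 1. A second Pdgfra probe, for a cDNA clone, stood at −3.25, −3.07 and −2.21 in RG@M-γ-CD and at −3.16, −2.69 and −2.67 in PBS, with a difference of −0.0046. The third was not well above background in any mouse. Pdgfrb stood at 0.69, 1.24 and 1.23 in RG@M-γ-CD 1 to 3 and at 1.03, 1.28 and 1.15 in PBS 1 to 3. The difference was −0.096 with a standard error of 0.20 and a 95% interval of −0.59 to 0.39 (unadjusted p = 0.652 by limma), and without RG@M-γ-CD 1, the lowest mouse, it turned to 0.085, and without both RG@M-γ-CD 1 and PBS 1 it was 0.022. All 4 PDGF ligand genes were tested, and 3 were higher and 1 lower, from 0.13 for Pdgfc to −0.051 for Pdgfb, the main ligand of PDGFRB. All 4 were lower without RG@M-γ-CD 1, and without both RG@M-γ-CD 1 and PBS 1 the tally was 2 and 2.

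The cells that carry these receptors were read by their own markers. Of 8 pericyte markers 7 were higher and 1 lower, with a median of 0.37, from 0.89 for Abcc9, a potassium channel subunit, to −0.050 for Cox4i2. Their summed linear signal was 32.5 to 40.5 in RG@M-γ-CD and 28.4 to 32.3 in PBS, and did not overlap. Mcam, the brightest of the 8, carries most of that sum and differed by 0.043. In the mean log2 level of the 8 markers the groups overlapped, with 0.29 in RG@M-γ-CD 1 against 0.23 to 0.56 in PBS. Of the 8, 6 were higher without RG@M-γ-CD 1 and PBS 1, again at a median of 0.37. Relative to the mean of the 8 markers, again a comparison added after the data were seen, Pdgfrb stood at 0.40, 0.37 and 0.21 in RG@M-γ-CD 1 to 3 and at 0.79, 0.72 and 0.85 in PBS 1 to 3. On that scale the treated mice were lower by a mean difference of −0.46, without overlap, and the exact permutation p was 0.1 (two-sided, n = 3 and 3), the smallest the design allows. Of the comparisons of members with cell type markers, all added after the data were seen, it was the only one without overlap. The share of all genes without overlap on this scale was not computed. Among the pericyte markers Abcc9, Cspg4 and Kcnj8 were highest in RG@M-γ-CD 2 and RG@M-γ-CD 3, as were those of smooth muscle. Kcnj8 was the 1 pericyte marker whose groups did not overlap, as in 2.38% of all genes with RG@M-γ-CD higher. It stood at 1.781, 2.07 and 2.88 in RG@M-γ-CD 1 to 3 and at 1.40, 1.65 and 1.778 in PBS 1 to 3. Of 8 fibroblast markers 7 were higher, with a median of 0.16, from 0.87 for Lum to −0.083 for Col1a1, and relative to them Pdgfra differed by −0.50 with overlapping groups (exact permutation p = 0.5, n = 3 and 3). The fibroblast median was 0.060 without RG@M-γ-CD 2, −0.0074 without RG@M-γ-CD 3 and 0.43 without RG@M-γ-CD 1 and PBS 1. With all mice the lists gave 0 calls and 0 genes at an unadjusted p below 0.05. The genes closest to Pdgfra over the 6 arrays were XR_141891 (gap 0.043), Wsb2 (0.050) and Casp8 (0.052), and those closest to Pdgfrb were Syt13 (0.025), Ccdc18 (0.048) and Hyls1 (0.049).

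Kit varied most of the members. The probe for its RefSeq mRNA stood at 0.42, 2.39 and 1.37 in RG@M-γ-CD 1 to 3 and at 1.02, 1.61 and 1.26 in PBS 1 to 3. The treated mice held both the highest and the lowest value, 1.98 apart. The difference was 0.098 with a standard error of 0.49 and a 95% interval of −1.08 to 1.27 (unadjusted p = 0.848 by limma), so a change of the mean in either direction by up to about 1 log2 unit lay within the interval. It was −0.40 without RG@M-γ-CD 2 and 0.59 without RG@M-γ-CD 1, and 0.45 without RG@M-γ-CD 1 and PBS 1. The neighbouring probes for an alternative transcript lie 4.13 kb upstream of the mRNA probe. A_55_P2935231 was well above background in 2 mice of each group and A_55_P2935232 in 1 of each, so no difference was taken.

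The ligand of KIT and the markers of the cells that carry it gave 0 calls by limma and 0 genes at an unadjusted p below 0.05. Kitl, the gene of its ligand, stood at 2.93, 1.56 and 2.27 in RG@M-γ-CD 1 to 3 and at 1.68, 2.26 and 2.24 in PBS 1 to 3, a difference of 0.19 that turned to −0.14 without RG@M-γ-CD 1 and to −0.33 without both RG@M-γ-CD 1 and PBS 1. In RG@M-γ-CD 1 and 2 it was high where Kit was low and low where Kit was high. Of 4 markers of interstitial cells of Cajal 3 were tested and Hcn4 was not well above background in any mouse. Ano1, their calcium-activated chloride channel, differed by 0.076, Etv1 by 0.65 and Prkcq by −0.39. Their median was 0.076, and 0.19 without RG@M-γ-CD 1 and PBS 1. Of 10 mast cell markers 7 were tested, 1 higher and 6 lower, from 0.10 for Mcpt2 to −1.08 for Hdc, and their summed linear signal was 20.9 in PBS 3 and between 6.46 and 9.19 in the other mice. Without PBS 3 the tally turned to 5 higher and 2 lower (median 0.64, against −0.085 with all mice), as it did with the slide row as a block (0.39), and without RG@M-γ-CD 1 and PBS 1 all 7 were lower (−0.44). Kit did not share that high value in PBS 3. Relative to the mean of the interstitial cell markers Kit differed by −0.015 and relative to the mast cell markers by 0.37 (exact permutation p = 0.9 and 0.7, n = 3 and 3). The genes closest to Kit were Arhgap24 (gap 0.045), Capn9 (0.079) and Rasd2 (0.081), where the median gap to all genes was 0.67.

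Ret stood at −0.28, −1.39 and −0.63 in RG@M-γ-CD 1 to 3 and at −1.12, −0.65 and −0.60 in PBS 1 to 3. It ran opposite to Kit in the treated mice, being highest in RG@M-γ-CD 1 and lowest in RG@M-γ-CD 2. The difference was 0.022 with a standard error of 0.32 and a 95% interval of −0.75 to 0.79 (unadjusted p = 0.947 by limma). Without RG@M-γ-CD 1 and PBS 1 it turned to −0.39, by 2 against 2 mice. Of 8 genes of GDNF family ligands and GFRA co-receptors 6 were tested, 4 higher and 2 lower, with a median of 0.11. It was −0.11 without PBS 1, −0.0091 without RG@M-γ-CD 3, 0.75 without RG@M-γ-CD 1 and 0.82 without RG@M-γ-CD 1 and PBS 1. Gdnf, the founding ligand, stood at −4.62, −1.98 and −1.56 in RG@M-γ-CD 1 to 3 and at −3.58, −3.37 and −2.86 in PBS 1 to 3, a difference of 0.55, and Gfra2, a co-receptor, differed by −0.31. Gfra1, the co-receptor that pairs RET with GDNF, was not well above background in any mouse.

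Enteric neuron markers did not share the Ret pattern. Of 11 listed genes 9 were tested, 7 higher and 2 lower, with a median of 0.71, from 1.54 for Vip, a neuropeptide, to −0.096 for Chat, the acetylcholine-making enzyme. Without RG@M-γ-CD 3 the median was 0.32, and without RG@M-γ-CD 1 and PBS 1 all 10 then tested were higher (1.22). The marker beyond the 9 passed the filter through RG@M-γ-CD 2 and RG@M-γ-CD 3 once RG@M-γ-CD 1 was left out. The summed linear signal of the 9 was 7.65, 19.4 and 22.8 in RG@M-γ-CD 1 to 3 and 9.63 to 11.9 in PBS. It was lowest in the mouse in which Ret was highest. Relative to the mean of these 9 markers Ret differed by −0.65 with overlapping groups (exact permutation p = 0.5, n = 3 and 3). The genes closest to Ret were 1700071K01Rik (gap 0.040), Rnf11 (0.042) and Sar1b (0.046).

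Braf was the steadiest member. Its brightest probe stood at 1.52, 1.72 and 1.74 in RG@M-γ-CD 1 to 3 and at 1.67, 1.37 and 1.54 in PBS 1 to 3. All 6 values lay within 0.38, and the groups overlapped. The difference was 0.14 with a standard error of 0.16 and a 95% interval of −0.25 to 0.52 (unadjusted p = 0.423 by limma), which leaves out 1 log2 unit in either direction, and it was 0.28 without RG@M-γ-CD 1 and PBS 1. Of the 4 other Braf probes 3 were tested, with differences of 0.13, 0.092 and 0.37, the last from a probe well above background in all treated mice and in 2 PBS mice. The fourth was not well above background in any mouse. The genes closest to Braf were Gm10651 (gap 0.038), an unnamed probe (A_55_P1999811, 0.041) and Vasp (0.045), an actin regulator.

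**Figure D4:**
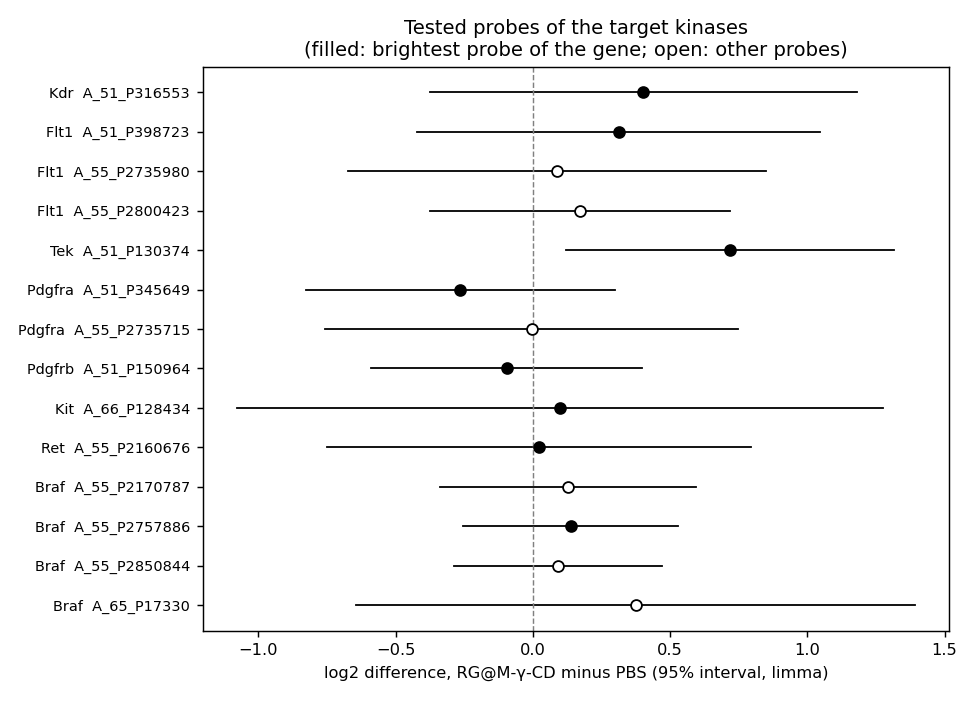
Difference between RG@M-γ-CD and PBS (log2, 3 against 3 mice) with its 95% interval from limma for each of the 14 tested probes of the target kinases, filled for the brightest probe of a gene and open for the others. The interval leaves out 0 for Tek and spans it for the other 13 probes.

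The cascade below these receptors gave no common direction. All 17 listed genes from the adapters to ERK were tested, 8 higher and 9 lower, with a median difference of −0.0051. With the slide row as a block, which compares the treated mice with PBS 1 alone, 14 of 17 were higher (0.14), and without RG@M-γ-CD 1 and PBS 1 5 of 17 were (−0.072). The tally was 12 of 17 without RG@M-γ-CD 2 (0.10), PBS 2 (0.023) or PBS 3 (0.061), and with the background corrected by normexp (0.023). It was 8 of 17 without RG@M-γ-CD 1 (−0.036), 7 of 17 without RG@M-γ-CD 3 (−0.040) and 5 of 17 without PBS 1 (−0.037). The ends were 0.32 for Gab1, a docking adapter, and −0.53 for Ksr2, a scaffold, while Map2k1, a MEK gene, differed by 0.29. Of 16 target and feedback genes of ERK 15 were tested, 6 higher and 9 lower, with a median of −0.048. With the slide row as a block 12 of 15 were higher (0.20), without RG@M-γ-CD 2 10 of 15 (0.065), without PBS 2 11 of 15 (0.065), and without RG@M-γ-CD 1 and PBS 1 6 of 15 (−0.25). Egr1, an immediate early transcription factor, differed by 0.75 and Ier3 by −0.60. Dusp6, an ERK phosphatase often read as a measure of the pathway, stood at 4.05, 3.96 and 3.92 in RG@M-γ-CD 1 to 3 and at 3.70, 4.19 and 4.19 in PBS 1 to 3, a difference of −0.049. Of 10 further kinases on the target list of the drug 9 were tested, 5 higher and 4 lower, with a median of 0.012 that turned to −0.052 without RG@M-γ-CD 1, −0.036 without RG@M-γ-CD 3, −0.066 without PBS 2 and −0.023 without RG@M-γ-CD 1 and PBS 1. Their ends were 0.48 for Ddr2, a collagen receptor, and −0.64 for Csf1r, the receptor of macrophage growth factor. These lists gave 0 calls by limma and 0 genes at an unadjusted p below 0.05. The groups did not overlap in 1 of these genes, Mapk11, a p38 kinase, which stood at −2.42, −2.26 and −2.39 in RG@M-γ-CD and at −1.57, −2.03 and −2.10 in PBS.

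Signals of cell type markers differed between mice of the same group. The summed linear signal of 8 smooth muscle markers was 104, 668 and 810 in RG@M-γ-CD 1 to 3 and 198 to 230 in PBS. That of 6 leukocyte markers was 145, 59.6 and 67.1 in RG@M-γ-CD 1 to 3 and 123 to 151 in PBS. Lyz2, the brightest of the 6, carries most of that sum, and Itgam was highest in RG@M-γ-CD 2 (3.58) and lowest in RG@M-γ-CD 1 (1.94). The mean log2 level of the 6 was 1.91, 1.39 and 1.29 in RG@M-γ-CD 1 to 3 and 1.94 to 2.01 in PBS. In summed linear signal the epithelial markers, 8 of 8 detected, spanned 869 to 1088 in RG@M-γ-CD and 820 to 1205 in PBS. The differences of the muscle markers ran from 0.78 for Cnn1 to 1.05 for Myh11 (8 of 8 higher), and those of the leukocyte markers from −0.82 for Lyz2 to −0.19 for Itgam (6 of 6 lower). The muscle median was 0.96 with all mice, 0.57 without RG@M-γ-CD 2, 0.37 without RG@M-γ-CD 3, 1.78 without RG@M-γ-CD 1 and 1.87 without RG@M-γ-CD 1 and PBS 1, and the leukocyte median was −0.42, −0.70 without RG@M-γ-CD 1 and −0.65 without RG@M-γ-CD 1 and PBS 1. All 3 tested markers of enteric glia had a higher mean, with a median difference of 0.53, but without RG@M-γ-CD 2 all 3 were lower (−0.023), without RG@M-γ-CD 3 the median was 0.091, and without RG@M-γ-CD 1 and PBS 1 it was 1.44. The differences of the epithelial markers (5 higher, 3 lower) ran from −0.25 for Krt18 to 0.065 for Vil1. The epithelial tally turned to 0 of 8 higher without PBS 1 (median −0.17 against 0.020 with all mice) and without RG@M-γ-CD 1 and PBS 1 (−0.15), to 1 of 8 without RG@M-γ-CD 3 (−0.12) and to 7 of 8 with the slide row as a block (0.36). With all mice limma called 0 of all these genes. Of the members, Pdgfrb and Kit were lowest in RG@M-γ-CD 1, the mouse with the least muscle signal, and Ret was highest there. The 2 mice with the most muscle signal, RG@M-γ-CD 2 and RG@M-γ-CD 3, differed from each other by 1.02 in Kit and by 0.82 in Kdr. Without RG@M-γ-CD 1, limma called 6 of 9 smooth muscle, 2 of 8 pericyte and 1 of 8 fibroblast markers. It also called 1 of 3 of interstitial cells of Cajal, 1 of 10 of enteric neurons and 1 of 5 of enteric glia. Over all genes it called 202 of 19466 in that setting, and 0 of the 8 members. With PBS 1 left out as well, it called 0 genes in these lists. Both settings tested 9 smooth muscle, 10 enteric neuron and 5 enteric glia markers, against 8, 9 and 3 with all mice. The added markers passed the filter through RG@M-γ-CD 2 and RG@M-γ-CD 3 once RG@M-γ-CD 1 was left out. The call shares and medians given for these settings include them. The part of tissue makeup in the values of the members was not tested.

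**Figure D5:**
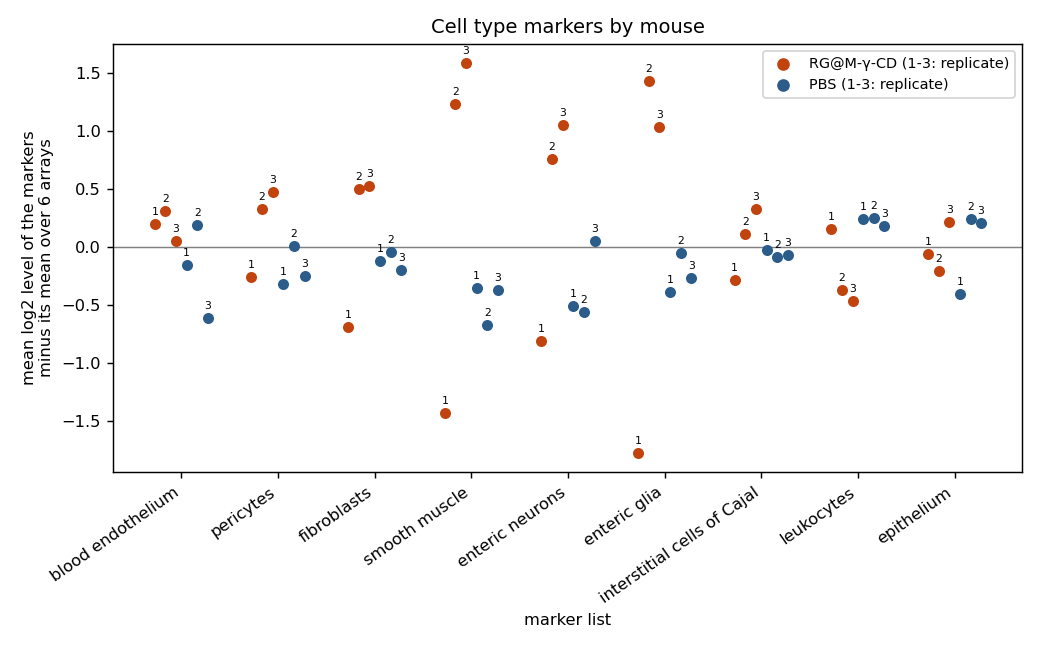
Mean log2 signal of the tested markers of 9 cell type lists in each mouse, minus its mean over 6 arrays, RG@M-γ-CD in red and PBS in blue with replicate numbers. RG@M-γ-CD 1 lies at the bottom and RG@M-γ-CD 2 and 3 at the top for smooth muscle, enteric neurons and enteric glia, while the PBS mice lie between them.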

How the data were processed

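Total RNA of 6 mice was labelled with Cy3 and hybridised to Agilent SurePrint mouse arrays, all on 1 slide with 1 scan. The authors deposited background-corrected spot intensities from Agilent Feature Extraction 10.7.1.1 that were not scaled between arrays, and flags for each spot. A second file deposited by them holds log2 values per probe, all 6 columns with a median of 4.83, whose method of normalization is not given in the sources used here; these served as an alternative.

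Values were computed in R 4.3.3 with the package data.table (version 1.17.8). Outlier spots (790 over all arrays, none of a member) were left out, 0 gene spots were saturated, spots of a probe were averaged, and each log2 intensity was set relative to the 75th percentile of its array (gene probes). The test covered the 28291 probes that stood well above background in all mice of either group or of both, with the brightest standing for its gene. Symbols came through accessions for 32994 probes (RefSeq, GRCm38.p6 table) and from the array for 23611. Groups were compared with limma 3.58.1 (lmFit, eBayes, Benjamini-Hochberg, threshold 0.05), a fit that was tested on simulated data. The methods' t-test (two-sided) was an alternative. The members and the lists of pathway and cell type genes were chosen with earlier results of these data known, and the lists are described without a test. The text names all members, the genes with the largest positive and negative difference of each list with any at an unadjusted p below 0.05, and the 3 closest profiles per member, except for genes that are not reported here. Vegfa, Lyve1, Map2k1, Mapk11, Dusp6, Cspg4, Kcnj8, Mcam, Nrp1, Ptprb, Ano1, Etv1, Prkcq, Angpt1 and Angpt2 were added beyond that rule for their role or after their values were seen. So were the genes named as not detected. The probe positions are those of the array design (mm9), and no gene annotation of that build was used, so exons and UTRs are not given. Figures were drawn with matplotlib 3.10.9. The number of arrays limits the precision.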

Additional observations from a re-analysis of the deposited data

How the results depend on the processing

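No alternative brought a member past the adjusted threshold: limma and the methods' t-test called 0 of them in each setting. At the methods' own thresholds, fold change of 2 and unadjusted p of 0.05, the t-test named 45 genes, 12 higher and 33 lower, and 0 members. The count over all genes was 0 in each setting and 202 without RG@M-γ-CD 1, so it ranged from 0 to 202 when mice were left out. The cause was not tested. Replicate numbers are only names here: same-numbered mice deviated together with correlations of −0.25, −0.23 and 0.14 for numbers 1 to 3, and with the replicate block 0 genes and 0 members passed. Kdr, Flt1, Tek and Pdgfra kept their direction in each planned setting.

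When mice were left out, singly or RG@M-γ-CD 1 and PBS 1 together, differences ranged from −0.19 to 0.085 for Pdgfrb, from −0.40 to 0.59 for Kit, from −0.39 to 0.34 for Ret, from −0.11 to 0.45 for Flt1 probe A_55_P2735980, from −0.32 to 0.20 for Pdgfra probe A_55_P2735715 and from −0.038 to 0.28 for Braf probe A_55_P2170787, all across 0. Within the slide row that holds all RG@M-γ-CD mice and PBS 1 alone (slide row as a block), signs turned for Pdgfrb (0.029), Braf (−0.0057), Flt1 probe A_55_P2735980 (−0.63), Pdgfra probe A_55_P2735715 (0.31) and Braf probe A_65_P17330 (−0.40), and Tek kept 0.73 (unadjusted p = 0.11 by limma). Pdgfra probe A_55_P2735715 also turned with quantile normalization (0.012) and in the authors' value table (0.013). Relative to cell type markers, settings added after seeing the data, Flt1 (−0.066), Kit (−0.015, interstitial cells of Cajal) and Ret (−0.65) turned. Of the 20 lists, those that turned include VEGF ligands, mast cells, cascade genes, ERK targets, epithelium and enteric glia, with the slide row as a block, the mean of probes or a mouse left out, as given beside them. The causes were not tested. Dim probes, those of Flt4 and of the soluble Kdr transcript among them, have no measured level.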
